A study of Homo sapiens with 15 samples.

Results

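The genes described here are 7 enzymes that desaturate or elongate fatty acids: the desaturases SCD, SCD5, FADS1 and FADS2 and the elongases ELOVL1, ELOVL5 and ELOVL6. They were chosen by symbol, and every array row annotated to them was taken. This gave 8 probe sets, 2 of them for SCD, among 53617 rows and 14884 named genes. Expression was measured on 15 whole-transcript arrays of Caco-2, a human colon carcinoma line whose confluent cells take on enterocyte features. The arrays fell into 3 groups of 5. Control cells were untreated, LPS cells received 1 µg/mL lipopolysaccharide of E. coli K12, a TLR4 ligand, for 48 h, and LPS+RSV cells received the same LPS after 1 h with 50 µM trans-resveratrol, a plant polyphenol. All groups were the same line, used 15 to 19 days after seeding. No group received resveratrol without LPS, and the labels do not say whether Control or LPS cells also got ethanol, the solvent of resveratrol. Nothing in the labels says that the numbered samples came from separate cultures, and the p-values therefore speak only of the spread among samples, part of which may be technical.

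Desaturases insert a double bond into an acyl-CoA chain with electrons passed on by cytochrome b5, and elongases carry out the condensing step by which a chain grows by a pair of carbons. SCD turns newly made saturated fatty acids into monounsaturated ones, chiefly oleate, for triglycerides, phospholipids and cholesteryl esters. FADS2 and FADS1 act in turn on dietary linoleic and linolenic acid on the route to arachidonic and eicosapentaenoic acid. In enterocytes these chains enter the membranes and the lipids exported in chylomicrons, and SCD, FADS1, FADS2, ELOVL5 and ELOVL6 are known targets of the lipogenic transcription factor SREBP-1.

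The filter on low values asked that a gene exceed the 40th percentile of the rows of at least 5 arrays. Across all 11804 such genes, 3 passed in LPS against Control, 5 in LPS+RSV against LPS and 0 in LPS+RSV against Control, at an adjusted p under 0.05 (limma with Benjamini-Hochberg adjustment). These are 0.0254%, 0.0424% and 0% of genes. LPS replicates 1 and 2 stood apart from the other arrays on the third principal component, at -17.9 and -19.4 where the others lay between -0.99 and 8.30. LPS+RSV replicate 1 had a mean correlation across genes of 0.946 with the other arrays, where the others had 0.973 to 0.984. Arrays of 1 group also differed in cell cycle genes: the cell cycle score, the mean log2 deviation of 35 cell cycle genes, spanned -1.0 to 0.46 in Control, -0.03 to 1.03 for the LPS arrays and -0.88 to 0.44 for LPS+RSV. Of 14 enterocyte markers listed, 10 were measured and all 10, among them VIL1, CDX2 and SI, lay above the filter on low values. Of 5 fibroblast markers 2 were measured, and DCN lay below the filter while VIM lay above it. Markers of other cell types also lay above it. These were all 3 enteroendocrine markers (CHGA, CHGB and SYP) and 3 of 4 measured goblet cell markers. LYZ, the 1 Paneth marker measured, and CD68, the 1 immune marker measured, did so too. The filter kept 11804 of 14884 named genes, so lying above it does not identify a cell type.

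All 7 genes lay above the filter in 15 of 15 arrays. In LPS, 6 of the 7 had a higher mean than in Control and SCD5 had a lower one, by at most 0.43 on the log2 scale, which is 1.35-fold. In LPS+RSV, SCD5 had a higher mean than in LPS and the other 6 a lower one. None of the 7 passed the test in any of the 3 comparisons. Between LPS+RSV and Control the 7 differences ran from -0.04 to 0.10.

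**Figure D1:**
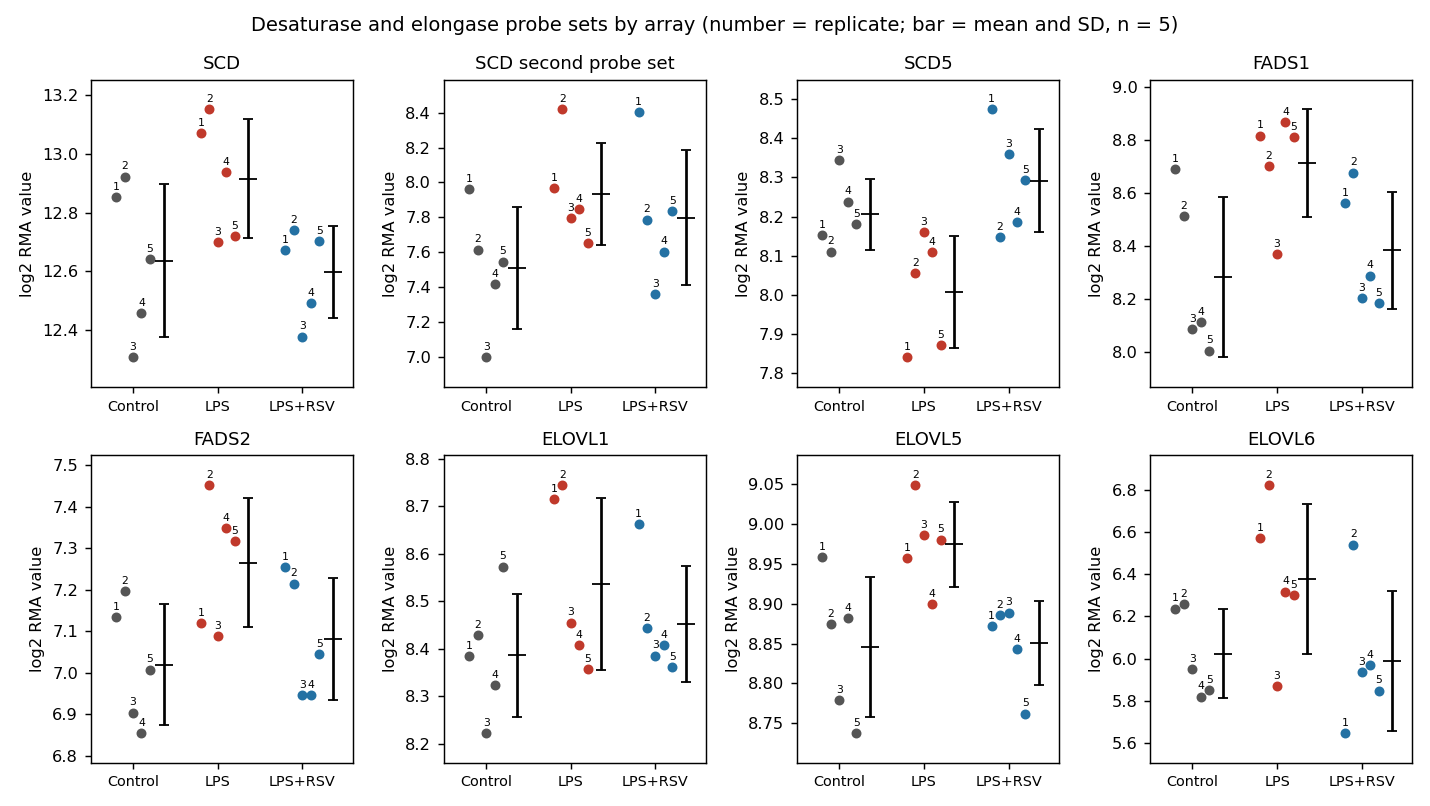
Log2 expression of each desaturase and elongase probe set on each array, by group, with the replicate number above each point and the group mean and SD beside it (n = 5 arrays). SCD5 was lowest in LPS, whereas the other probe sets had their highest mean in LPS, and all 5 LPS+RSV arrays lay below all 5 LPS arrays for ELOVL5 only.

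SCD, the stearoyl-CoA desaturase of lipogenic tissues, stood at 12.85, 12.92, 12.31, 12.46 and 12.64 in Control replicates 1 to 5 (log2 expression). The 5 LPS arrays read 13.07, 13.15, 12.70, 12.94 and 12.72, and the 5 LPS+RSV arrays 12.67, 12.74, 12.38, 12.49 and 12.70. Of the LPS arrays, 3 exceeded every Control and every LPS+RSV array, while LPS replicates 3 and 5 lay within their range. The LPS mean of 12.92 ± 0.20 was above the Control mean of 12.64 ± 0.26 by 0.28 ± 0.12 (SD, n = 5 each; SE of the difference; 95% confidence interval 0.02 to 0.54). That is 1.21-fold, with an adjusted p = 0.603 in limma. The confidence intervals given here are per gene and, unlike the adjusted p, are not adjusted for the number of genes tested. LPS+RSV, at 12.60 ± 0.16, was 0.32 ± 0.12 below LPS (95% confidence interval -0.58 to -0.05; limma adjusted p = 0.198). Against Control, LPS+RSV differed by -0.04 (95% confidence interval -0.30 to 0.22). LPS replicates 1 and 2 were the highest SCD arrays of the series, so leaving them out must lower the LPS mean. Without both, LPS exceeded Control by 0.15 and LPS+RSV was below LPS by a log2 difference of -0.19. Leaving out any 1 array gave 0.20 to 0.35 for LPS against Control and -0.37 to -0.26 for LPS+RSV against LPS.

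The other SCD probe set read 7.96, 7.61, 7.0, 7.42 and 7.55 in Control, 7.97, 8.42, 7.80, 7.85 and 7.65 in LPS, and 8.40, 7.79, 7.36, 7.60 and 7.84 in LPS+RSV. LPS replicate 2 and LPS+RSV replicate 1 were both high, and the 3 groups overlapped. LPS differed from Control by 0.43 ± 0.19 (limma adjusted p = 0.619 over 12700 probe sets), and LPS+RSV differed from LPS by -0.14 ± 0.19 (limma adjusted p = 0.735). LPS+RSV was 0.29 ± 0.19 above Control (limma adjusted p = 0.565). The LPS+RSV values rested on single arrays. Without LPS+RSV replicate 1, LPS+RSV differed from LPS by -0.29 and from Control by 0.14, and array weights gave -0.29 against LPS. The difference from LPS was -0.02 without LPS replicate 2, -0.03 without LPS+RSV replicate 3, -0.09 without LPS+RSV replicate 4 and -0.21 without LPS replicate 5, and had the opposite sign, at 0.03, without LPS replicates 1 and 2. Around their group means the probe sets of SCD followed each other over the 15 arrays with a Pearson r of 0.782, which does not say that they measured the same transcript.

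Row order bears on what this probe set reads. SCD lies on the plus strand of chromosome 10. Of the 10 named rows nearest in identifier to the brighter SCD row, 9 belong to plus-strand genes, whereas all 10 nearest to the other SCD row belong to minus-strand genes of the same chromosome. Over 10919 rows that could be placed this way, 97% had the strand of most of their 10 neighbours, as did all the other members. Whether the probes of that row lie on the opposite strand of SCD was not tested, because probe sequences were not used here. The brighter row stands for SCD below, by the rule that took the brightest probe set of each gene.

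SCD5, the other human stearoyl-CoA desaturase, known chiefly from brain and pancreas, ran the other way. Its Control arrays read 8.15, 8.11, 8.34, 8.24 and 8.18. The LPS arrays read 7.84, 8.06, 8.16, 8.11 and 7.87, and the LPS+RSV arrays 8.47, 8.15, 8.36, 8.19 and 8.29. Of the LPS arrays, 4 lay below every LPS+RSV array, and LPS replicate 3 was the exception. LPS, at 8.01 ± 0.14, was below Control, at 8.21 ± 0.09, by a log2 difference of -0.20 ± 0.08 (95% confidence interval -0.37 to -0.02; limma adjusted p = 0.577). LPS+RSV, at 8.29 ± 0.13, was above LPS by 0.28 ± 0.08, or 1.22-fold (95% confidence interval 0.11 to 0.46). Its unadjusted p of 0.00321 ranked at 286 of 11804 genes and its adjusted p was 0.131 in limma. The direction of both differences did not rest on the arrays that stood apart, with -0.16 and 0.25 without LPS replicates 1 and 2 and 0.24 for LPS+RSV against LPS without LPS+RSV replicate 1.

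Within each array the log2 difference SCD5 minus SCD, set against its Control mean, was -0.80, -0.67, -0.11, -0.40 and -0.42 in LPS. It was -0.27, -0.38, 0.47, 0.21 and -0.03 in Control, and 0.23, -0.16, 0.41, 0.13 and 0.02 in LPS+RSV. The LPS mean was -0.48 ± 0.27, set beside 0.00 ± 0.35 for Control and 0.13 ± 0.22 for LPS+RSV (SD, n = 5 each). Here 4 of 5 LPS arrays lay below every array of the other groups, with LPS replicate 3 again the exception. This pair was chosen with its opposite directions known, so no test was made.

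The sequence before the start site is shown for SCD and SCD5, the pair that differed in opposite directions. The letters are the 250 bases before the RefSeq start of each gene (GRCh38.p14), 5′ to 3′ on the gene's strand, at chr10:100346983-100347232 on the plus strand for SCD and chr4:82798797-82799046 on the minus strand for SCD5. Capitals mark the CCAAT box, the core letters bound by the factor NF-Y, a partner of SREBP at many lipid genes.
SCD: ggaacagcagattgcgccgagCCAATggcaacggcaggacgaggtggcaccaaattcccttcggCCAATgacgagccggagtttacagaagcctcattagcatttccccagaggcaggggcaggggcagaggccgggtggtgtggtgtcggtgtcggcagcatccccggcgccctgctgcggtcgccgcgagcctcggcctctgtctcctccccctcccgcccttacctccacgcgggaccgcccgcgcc
SCD5: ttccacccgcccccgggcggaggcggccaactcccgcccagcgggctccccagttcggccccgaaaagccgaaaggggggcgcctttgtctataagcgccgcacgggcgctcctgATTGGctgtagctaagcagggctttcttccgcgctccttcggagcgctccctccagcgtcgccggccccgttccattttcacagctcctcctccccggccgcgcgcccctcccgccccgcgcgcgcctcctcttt
RefSeq windows from 250 bases before to 50 after the start were found for all 7 genes, with 2 for FADS2. Read on both strands, CCAAT was present in 2 copies in the SCD and ELOVL5 windows, in 1 copy in those of SCD5, ELOVL1 and 1 of the FADS2 starts, and in none of those of FADS1 and ELOVL6. It is present in 34.6% of all 35116 windows of this length. The sterol regulatory element, searched as TCACNCCAC on both strands, was in none of the members' windows and is in 1.13% of all windows. CACGTG, the core E-box also read by the carbohydrate response factor, was in ELOVL5 alone among the members and is in 7.26% of windows. These matches describe letters only, and a missing match says nothing about a factor's binding outside the window.

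FADS1 makes arachidonic acid from its direct precursor. Its Control arrays read 8.69, 8.51, 8.09, 8.11 and 8.01, its LPS arrays 8.82, 8.70, 8.37, 8.87 and 8.81, and its LPS+RSV arrays 8.56, 8.68, 8.21, 8.29 and 8.19. Of the LPS arrays, 4 lay above every Control array and LPS replicate 3 was low. FADS1 had the largest LPS difference among the members, 0.43 ± 0.14 on the log2 scale or 1.35-fold, from 8.28 ± 0.30 to 8.71 ± 0.20 (95% confidence interval 0.13 to 0.73). Its unadjusted p was 0.00811 and its adjusted p was 0.393 in limma. LPS+RSV, at 8.38 ± 0.22, was below LPS by a log2 difference of -0.33 ± 0.14 (limma adjusted p = 0.24) and above Control by 0.10 ± 0.14.

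FADS2 carries out the first and slowest desaturation of the same route. Control arrays read 7.13, 7.20, 6.90, 6.85 and 7.01, LPS arrays 7.12, 7.45, 7.09, 7.35 and 7.32, and LPS+RSV arrays 7.25, 7.21, 6.95, 6.95 and 7.04. In LPS 3 of 5 arrays exceeded all Control and all LPS+RSV arrays, and LPS replicates 1 and 3 did not. LPS differed from Control by 0.25 ± 0.09 (limma adjusted p = 0.544) and LPS+RSV from LPS by -0.18 ± 0.09 (limma adjusted p = 0.304). FADS1 and FADS2 are neighbours on chromosome 11, on opposite strands. Around their group means they followed each other with a Pearson r of 0.72 over 15 arrays.

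Both FADS genes had their higher Control values in replicates 1 and 2, the Control arrays with cell cycle scores of 0.46 and 0.45 where the others had -0.19 or less. Over deviations from the group means, FADS1 had a Pearson r of 0.777 and a Spearman rho of 0.725 with the cell cycle score, given as a description over 15 arrays that share groups. For FADS2 r was 0.462. With the score as a covariate, FADS1 exceeded Control in LPS by 0.23 ± 0.11, and LPS+RSV differed from LPS by -0.07 ± 0.11. For FADS2 these differences were 0.17 ± 0.10 and -0.09 ± 0.10. Without LPS replicates 1 and 2, LPS differed from Control by 0.40 for FADS1 and 0.23 for FADS2, close to the values over all arrays.

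ELOVL6, which extends palmitate to stearate and so feeds SCD, varied most between arrays among the elongases. It was also the member of lowest mean, and its lowest array, at 5.65, lay close to the array medians given with the processing. Control arrays read 6.24, 6.26, 5.95, 5.82 and 5.85, LPS arrays 6.57, 6.82, 5.87, 6.32 and 6.30, and LPS+RSV arrays 5.65, 6.54, 5.94, 5.97 and 5.85. In LPS 4 of 5 arrays exceeded every Control array, LPS replicate 3 lay inside the Control range, and LPS+RSV replicate 2 reached the level of the LPS arrays. LPS, at 6.38 ± 0.36, differed from Control, at 6.02 ± 0.21, by 0.35 ± 0.17 (limma adjusted p = 0.653). LPS+RSV, at 5.99 ± 0.33, differed from LPS by -0.39 ± 0.17, the largest LPS+RSV difference among the members (limma adjusted p = 0.253). These values shrank to 0.14 and -0.17 without LPS replicates 1 and 2, and to 0.19 and -0.17 with the cell cycle score as a covariate. ELOVL6 had the most opposed pattern to SCD5, with a Pearson r of -0.601 over deviations from the group means.

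ELOVL5, the elongase of polyunsaturated chains, varied least. It read 8.96, 8.87, 8.78, 8.88 and 8.74 in Control, 8.96, 9.05, 8.99, 8.90 and 8.98 in LPS, and 8.87, 8.89, 8.89, 8.84 and 8.76 in LPS+RSV. All 5 LPS+RSV arrays lay below all 5 LPS arrays, which held for 1.39% of genes in that direction and 2.8% in either. No other member was separated in any comparison, where the share of separated genes was 2.21% for LPS against Control and 1.72% for LPS+RSV against Control. The gap was narrow: the lowest LPS array was at 8.90 and the highest LPS+RSV array at 8.89. LPS+RSV differed from LPS by -0.12 ± 0.06 (95% confidence interval -0.25 to 0.00; limma adjusted p = 0.272), and LPS from Control by 0.13 ± 0.06 (limma adjusted p = 0.625). The LPS+RSV difference was -0.06 after a further quantile normalization (limma adjusted p = 0.6) and -0.08 with the cell cycle score as a covariate (limma adjusted p = 0.688); over all its alternatives the adjusted p ran from 0.214 to 0.688. LPS+RSV and Control differed by 0.004, with a 95% confidence interval of -0.12 to 0.13.

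ELOVL1 makes very long saturated and monounsaturated chains for sphingolipids. It read 8.38, 8.43, 8.22, 8.32 and 8.57 in Control, 8.72, 8.74, 8.46, 8.41 and 8.36 in LPS, and 8.66, 8.44, 8.39, 8.41 and 8.36 in LPS+RSV. Only LPS replicates 1 and 2 exceeded every Control array, and the other 3 LPS arrays lay inside the Control range. LPS differed from Control by 0.15 ± 0.09 (limma adjusted p = 0.743) and LPS+RSV from LPS by -0.08 ± 0.09 (limma adjusted p = 0.654). Without LPS replicates 1 and 2 these were 0.02 and 0.05, so that the second changed sign. Over the other alternatives the LPS+RSV difference from LPS ranged from -0.16 with the cell cycle covariate to -0.02 after a further quantile normalization.

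**Figure D2:**
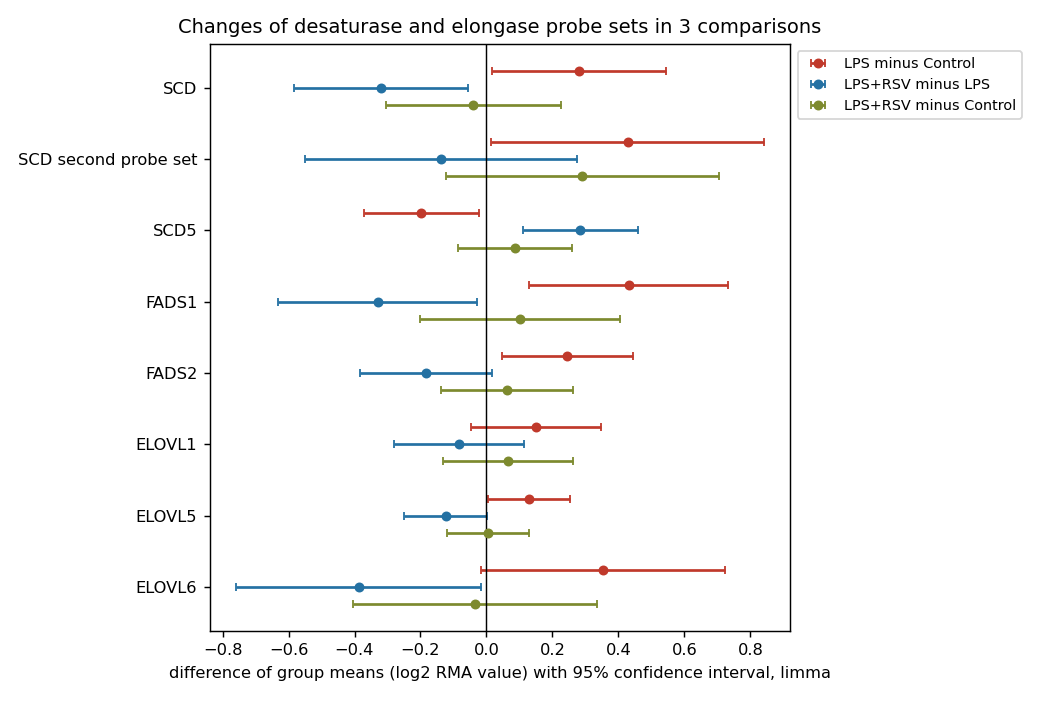
Difference of group means in log2 units with its 95% confidence interval (limma, not adjusted for the number of genes) for each probe set in the 3 comparisons. SCD5 lies at -0.20 for LPS minus Control and at 0.28 for LPS+RSV minus LPS, opposite to the other genes, and every interval of LPS+RSV minus Control includes 0.

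As a group, 6 of 7 members had a higher mean in LPS than in Control, where 52.7% of all genes did, with a median difference of 0.25 against 0.01 over all genes tested. At an unadjusted p under 0.05, 4 members were higher and 1, SCD5, was lower, where 4.62% of all genes were higher and 3.26% lower; 0 of 7 passed the limma test after adjustment. For LPS+RSV against LPS, 1 of 7 members had the higher mean in LPS+RSV, where 52.1% of all genes did, and the median was -0.18 against 0.01 over all genes. There SCD, FADS1 and ELOVL6 were lower and SCD5 higher at an unadjusted p under 0.05, where 10.5% of all genes were lower and 8.08% higher, and 0 passed in limma. Against Control, 5 of 7 members were higher in LPS+RSV, where 55.8% of all genes were, the median was 0.06 against 0.02, and 0 members had an unadjusted limma p under 0.05, where 10.5% of all genes did. The first and the second of these comparisons share the LPS arrays, so a high or low LPS array moves both. The members were chosen with such results known, and nothing is drawn from these counts.

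The members' relations to each other are described here over deviations from group means on 15 arrays. SCD, FADS1, FADS2 and ELOVL6 went together, with Pearson r from 0.502 to 0.72 for their 6 pairs. SCD5 had r of -0.601 with ELOVL6, -0.409 with FADS1 and -0.383 with SCD, and r between -0.123 and -0.067 with FADS2, ELOVL1 and ELOVL5. ELOVL1 went with SCD at r = 0.619 but with FADS1 at only 0.174, and its r with the cell cycle score was -0.374. LPS+RSV replicate 1, the array least like the rest, was lowest of all 15 in ELOVL6 at 5.65 and highest in SCD5 at 8.47. It lay above the LPS+RSV mean in every probe set but that of ELOVL6. In the other SCD probe set it read 8.40, where the mean was 7.80. The excess was small in SCD, at 12.67 beside a mean of 12.60, and in ELOVL5, at 8.87 beside 8.85.

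**Figure D3:**
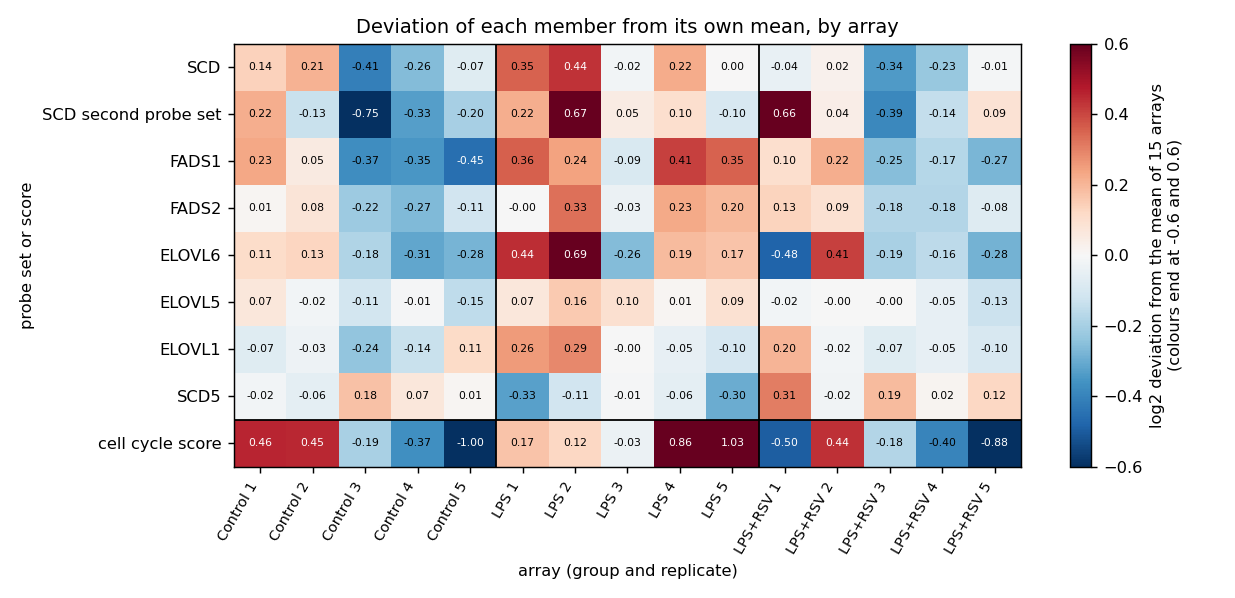
Log2 deviation of each probe set, and of the cell cycle score, from its own mean over the 15 arrays, with arrays in columns by group and colours ending at -0.6 and 0.6. LPS replicates 1 and 2 are high in SCD, ELOVL6 and ELOVL1, and FADS1 is high in LPS replicates 1, 2, 4 and 5, of which 4 and 5 have the highest cell cycle scores.

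The rest of the desaturation and elongation machinery showed no single direction, including ELOVL3, ELOVL4, ELOVL7, FADS3, the ketoacyl-CoA reductase HSD17B12 and the dehydratase HACD3, whose differences ran from -0.08 to 0.12 between LPS and Control and from -0.17 to 0.05 between LPS+RSV and LPS. Of 20 other enzymes listed, 14 were measured and 12 tested. In LPS, 7 were higher and 5 lower than in Control, with a median of 0.02, where 52.7% of all genes were higher. None passed in limma, with 0 called. At an unadjusted limma p under 0.05, 1 was higher and 2 lower, where 4.62% and 3.26% of all genes were. In LPS+RSV against LPS, 5 were higher and 7 lower, with a median of -0.09. There 3 were higher and 1 lower at an unadjusted limma p under 0.05, where 8.08% and 10.5% of all genes were. The lowest p-values of the list belonged to electron carriers. CYB5A, the cytochrome b5 of the endoplasmic reticulum, differed by -0.24 ± 0.09 between LPS and Control and by 0.31 ± 0.09 between LPS+RSV and LPS (limma adjusted p = 0.518 and 0.129), the directions of SCD5. CYB5R1, of the cytochrome b5 reductase family, differed by -0.23 ± 0.09 and 0.29 ± 0.09 (limma adjusted p = 0.562 and 0.15). CYB5B, the cytochrome b5 of the outer mitochondrial membrane, differed the other way, by 0.30 ± 0.15 and -0.46 ± 0.15 (limma adjusted p = 0.665 and 0.164). CYB5R2 differed by 0.20 ± 0.09 in LPS against Control (limma adjusted p = 0.587).

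Upstream, 8 genes that supply saturated fatty acids were tested, and 6 had a higher mean in LPS than in Control, where 52.7% of all genes did. Their median was 0.08, and 0 passed in limma. At an unadjusted limma p under 0.05, 1 was higher and 1 lower, where 4.62% and 3.26% of all genes were. In LPS+RSV against LPS the list had no single direction, with 4 higher, 4 lower and a median of 0.02, where 52.1% of all genes were higher. There 1 was higher and 2 lower at an unadjusted limma p under 0.05, where 8.08% and 10.5% of all genes were. The lowest p of the list in LPS against Control belonged to the fatty acid synthase FASN, which was 0.33 ± 0.11 higher (limma adjusted p = 0.372) and in LPS+RSV differed from LPS by -0.34 ± 0.11 (limma adjusted p = 0.153). FASN was also the third closest gene to FADS1 in its profile, at r = 0.935 over 15 arrays. ACACA, the acetyl-CoA carboxylase that makes malonyl-CoA for synthesis, differed by 0.14 ± 0.14 in LPS against Control and by -0.31 ± 0.14 in LPS+RSV against LPS (limma adjusted p = 0.867 and 0.254). ACACB, the separate gene of the mitochondrial acetyl-CoA carboxylase, differed the other way, by -0.16 ± 0.06 and 0.22 ± 0.06 (limma adjusted p = 0.544 and 0.127). Of 13 regulators tested, 9 had a higher mean in LPS than in Control, beside the same 52.7% of all genes. Their median was 0.08, and 0 passed in limma. Again 1 was higher and 1 lower at an unadjusted limma p under 0.05. In LPS+RSV against LPS, 6 regulators were higher and 7 lower, with a median of -0.03. Of these, 1 was higher and 3 lower at an unadjusted limma p under 0.05, where 8.08% and 10.5% of all genes were. INSIG1, which retains SREBP in the endoplasmic reticulum when sterols are plentiful, had the lowest p in LPS against Control and differed by 0.43 ± 0.16 there and by -0.43 ± 0.16 in LPS+RSV against LPS (limma adjusted p = 0.534 and 0.188). SREBF1, the gene of SREBP-1, differed by 0.13 ± 0.06 and -0.06 ± 0.06 (limma adjusted p = 0.653 and 0.65). SCAP, which escorts SREBP, differed by -0.07 ± 0.12 and 0.19 ± 0.12, and MLXIPL, the carbohydrate response factor, by -0.07 ± 0.19 and 0.09 ± 0.19, in the same comparisons. The transcription factor SP1 was at -0.15 ± 0.06 and 0.14 ± 0.06 (limma adjusted p = 0.564 and 0.221).

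Among 14 tested genes of cholesterol synthesis and uptake, which SREBP-2 controls, 12 had a higher mean in LPS than in Control and 11 a lower one under LPS+RSV than under LPS. The medians were 0.16 and -0.19, beside 0.25 and -0.18 for the members. Over all genes, 52.7% had a higher mean in LPS than in Control and 52.1% a higher one in LPS+RSV than in LPS. None of the 14 passed in limma. At an unadjusted limma p under 0.05, 4 were higher in LPS than in Control, where 4.62% of all genes were. In LPS+RSV against LPS, 6 were lower and 1 higher, where 10.5% and 8.08% of all genes were. All 35 tested cell cycle genes had their highest mean in LPS, with medians of 0.56 above Control and -0.70 for LPS+RSV against LPS; 0 passed in limma and 11 and 25 had an unadjusted p under 0.05. These lists share arrays with the members, and their part in the members' differences was not tested. The cell cycle score was made from these same arrays and differed between the groups. The covariate fits above therefore cannot tell the cell cycle apart from the treatment.

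**Figure D4:**
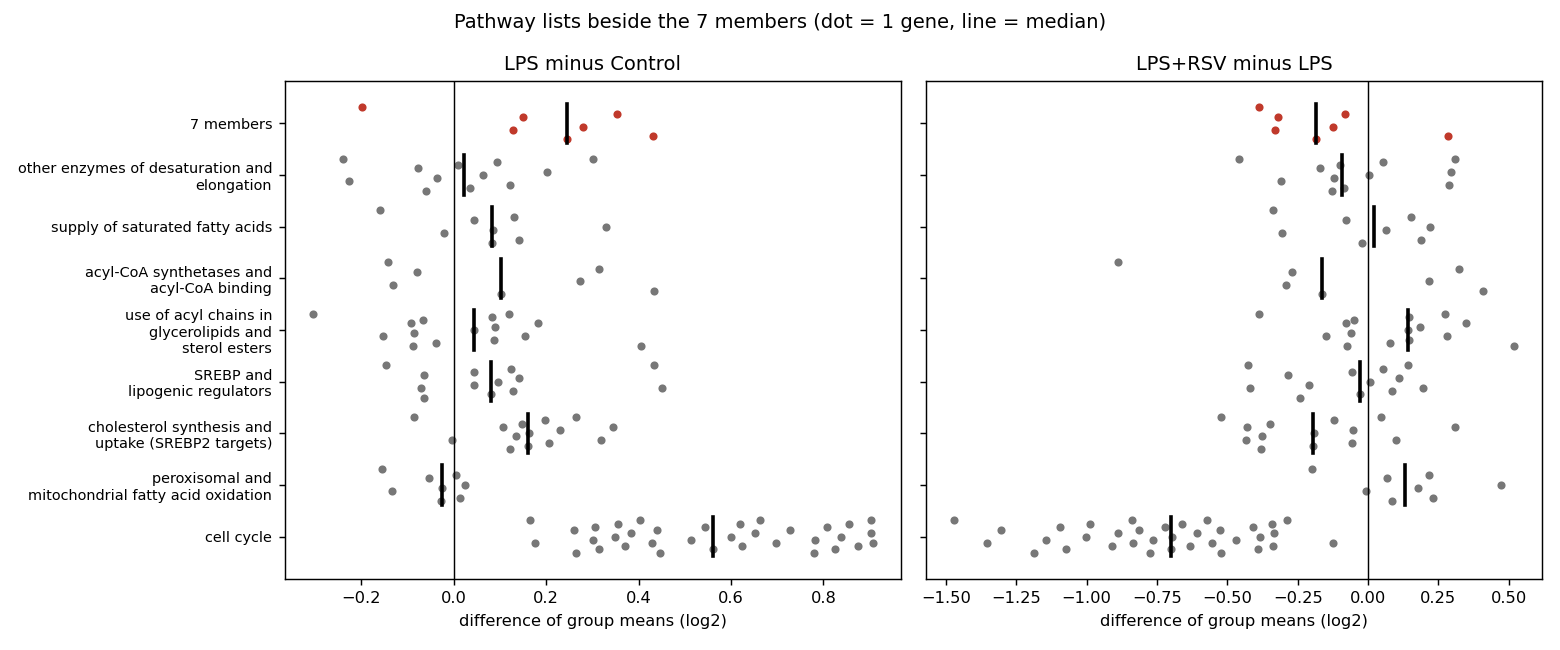
Difference of group means (log2) for each tested gene of the pathway lists beside the 7 members, with 1 dot per gene and a line at each list's median, for LPS minus Control and LPS+RSV minus LPS. The members' medians are 0.25 and -0.18, the cholesterol list's 0.16 and -0.19 and the cell cycle list's 0.56 and -0.70.

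The genes whose levels followed each member most closely over the 15 arrays were ranked by Pearson r among all genes tested, group differences included. For SCD they were TLCD1, a regulator of membrane lipid composition, at 0.94, INSIG1 at 0.934, and the prenyl transferase FDPS at 0.913. For FADS2 the closest was ACAT2, the cytosolic thiolase that opens sterol synthesis, at 0.924, followed by MICB and GTF3A at 0.894 and 0.88. FADS1 was followed by JADE3 at 0.954, SEPHS1 at 0.951 and FASN. SCD5 was followed by P3H4, MAPT and KAZALD1, between 0.9 and 0.907, and ELOVL6 by STX2, SH3BP4 and MFAP3, between 0.912 and 0.941. For ELOVL1 they were C14orf119, ITPK1 and GLTP, the last a glycolipid transfer protein, between 0.885 and 0.896, and for ELOVL5 USP14 at 0.919, ACOT9 at 0.879 and the row annotated to MIR622 at 0.848. Such ranks over 11804 genes and 15 arrays describe these arrays only.

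Leaving out any 1 array kept the sign of all 7 members in both comparisons with LPS. Over these 15 fits the SCD5 difference of LPS from Control ran between -0.24 and -0.16, and that of LPS+RSV from LPS between 0.24 and 0.32. For FADS1 the same ranges were 0.36 to 0.53 and -0.42 to -0.28. In no alternative fit did a member pass in these comparisons: the lowest limma adjusted p was 0.125, for FADS1, in LPS against Control, where over its alternatives it ran up to 0.854. In LPS+RSV against LPS it was 0.0622, for SCD5, where it ran up to 0.355. The 95% confidence interval of ELOVL6 in LPS+RSV against LPS, for example, runs from -0.76 to -0.02. A miss in the test therefore does not show that a gene did not change. Such intervals are per gene, with no adjustment for the number of genes tested, so one that leaves out 0 does not show a change.

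**Figure D5:**
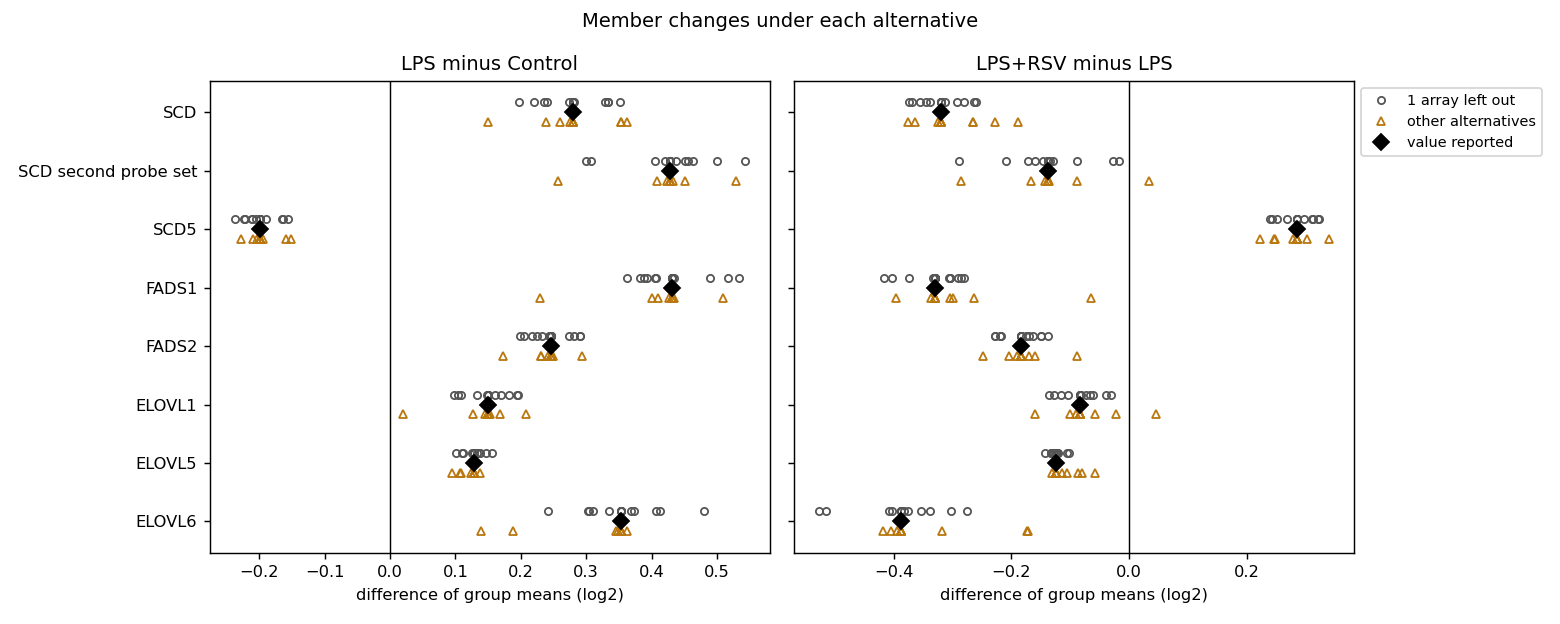
Difference of group means (log2) of each probe set as reported (diamonds), with 1 array left out (circles) and under the other alternatives (triangles), for LPS minus Control and LPS+RSV minus LPS. SCD5 stays below 0 in the left panel and above 0 in the right one, and the triangle of FADS1 at -0.07 is the fit with the cell cycle score.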

How the data were processed

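The 15 samples were 5 each of Control, LPS and LPS+RSV; 300 ng of total RNA per sample was made into biotin-labelled sense cDNA for an Affymetrix array, per the labels. The deposited values are log2 expression values per probe set that the authors made with RMA, per the submitters' processing notes; version and genome build are not given in the sources used here. Of 53617 rows, 16098 had 1 symbol in the platform annotation, 0 had several and 37519 had none. Array medians lay between 5.49 and 5.54; the number of arrays limits the precision.

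Values were used as deposited. Each gene was represented by its brightest probe set, and genes above the 40th percentile of an array in at least 5 arrays were kept, which left 11804. Linear models with 3 group means were fitted to all arrays with limma 3.58.1 (R 4.3.3), and adjusted p-values are Benjamini-Hochberg over all genes. The other SCD row was tested among 12700 probe sets. Named genes were drawn from the members, FASN, SREBF1, SCAP, INSIG1, ACACA and MLXIPL, up to 4 called genes and the 3 of lowest p per list in the comparisons with LPS, and the 3 closest in profile to each member. Not every gene that met this rule is named, and TMEM33, SQLE, IDI1 and EBP are among those left out. ELOVL3, ELOVL4, ELOVL7, FADS3, HSD17B12, HACD3 and the cell type markers are named outside the rule. Members, lists and alternatives were chosen with earlier results of these data known. Promoters came from RefSeq (GRCh38.p14). The fit was tested on simulated data with independent noise for each gene, without the variation that genes of these arrays share. It recovered 67% to 72% of changes of 0.5 on the log2 scale over the 3 comparisons, with 7 to 16 false calls. A change of that size is larger than any difference of the members. Alternatives covered filter, probe sets, normalization, moderation, array weights, groups fitted, replicate block, cell cycle covariate and arrays left out.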

Additional observations from a re-analysis of the deposited data

Results flagged for a closer look

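The 5 arrays of each group were checked for 1 far from the rest, for 8 probe sets in 3 groups. Of these 24 sets, 1 stood out, where chance gives about 1 in 20. ELOVL1 in LPS+RSV replicate 1 was at 8.66, while the other LPS+RSV arrays lay between 8.36 and 8.44. This array was also the one least correlated with the rest over all genes. Without it, LPS+RSV differed from LPS by -0.14 for ELOVL1, against -0.08 with it.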

How the results depend on the processing

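No member passed in any alternative of any comparison (limma, 0 of 7). Counts over all genes were less stable. In LPS against Control, 3 genes passed, against 8 with every probe set tested, 1 with arrays centred on their medians, 15 with array weights, 0 in a fit to the 2 groups compared and 66 with the cell cycle covariate; leaving out 1 array gave 1 to 10. In LPS+RSV against LPS, 5 passed, against 20 with every probe set tested, 18 after a further quantile normalization, 3 after cyclic loess, 25 with array weights, 0 in a fit to the 2 groups compared, 12 with the cell cycle covariate and 1 without LPS replicates 1 and 2; leaving out 1 array gave 1 to 121, with 102 without LPS replicate 3 and 121 without LPS+RSV replicate 2. The cause was not tested.

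Signs changed where differences were small. In LPS+RSV against Control, SCD was at -0.04 and at 0.13 with the mean of its probe sets, ELOVL5 at 0.0044 and at -0.0062 with centred arrays, and ELOVL6 at -0.03, at 0.044 with array weights and at 0.017 with the cell cycle covariate. Leaving out 1 array gave -0.12 to 0.032 for SCD, -0.023 to 0.032 for ELOVL5 and -0.17 to 0.051 for ELOVL6 in that comparison. Without LPS replicates 1 and 2, LPS+RSV against LPS gave 0.045 for ELOVL1 and 0.034 for the other SCD probe set.

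Groups share replicate numbers, but same-numbered arrays correlated over deviations from group means between -0.54 and 0.71. Over 0.1 were 1 of 5 pairs for LPS and Control, 0 for LPS+RSV and LPS and 3 for LPS+RSV and Control, so not every pair met the rule and the samples were taken to share only a number. In the last of these, cell cycle scores of replicates 2 to 5 were close by number, at 0.45, -0.19, -0.37 and -1.0 in Control and 0.44, -0.18, -0.40 and -0.88 in LPS+RSV, a hint from the data and not from the labels. Of 10 arrays, 1, 0 and 4 correlated best with their own number in the 3 comparisons. With the replicate number as a block, 6, 3 and 0 genes passed and 0 members. The block changed the precision of some members in LPS against Control. The SE was 0.08 with it and 0.12 without it for SCD, and 0.11 and 0.14 for FADS1. The SE was also lower with the block for ELOVL6, at 0.13 and 0.17, and for the other SCD probe set, at 0.14 and 0.19. For FADS2 it was 0.079 and 0.094, and for ELOVL1 0.086 and 0.093. It did not fall for SCD5, at 0.083 and 0.082, or for ELOVL5, at 0.062 and 0.059. The adjusted p of SCD was 0.348 with the block (limma).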

Other observations

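Genes that load and unload acyl chains differed in both directions. ACSL4, the synthetase that favours arachidonic acid, had the largest difference of its list in LPS+RSV against LPS, -0.89 ± 0.21 on the log2 scale (from 8.74 ± 0.29 to 7.85 ± 0.42, SD, n = 5 each; adjusted p = 0.102, limma), and was 0.43 ± 0.21 higher in LPS than in Control (adjusted p = 0.645). ACSL1 and ACSL5 were 0.32 ± 0.15 and 0.27 ± 0.13 higher in LPS (adjusted p = 0.631 for each, limma). The thioesterases ACOT2 and ACOT7, which release fatty acids from CoA, were 0.41 ± 0.14 and 0.32 ± 0.10 higher in LPS+RSV than in LPS (adjusted p = 0.167 and 0.153, limma), as was the peroxisomal thiolase ACAA1, at 0.47 ± 0.18 (adjusted p = 0.19, limma). None of these genes passed. Of 8 tested fatty acid oxidation genes, 6 had a higher mean under LPS+RSV than under LPS, where 52.1% of all genes did. Their median was 0.13 against 0.01 over all genes.

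Of 15 tested genes that use acyl chains in glycerolipids and sterol esters, 9 had a higher mean under LPS+RSV than under LPS; over all genes 52.1% did. The median was 0.14 and 0 passed in limma. At an unadjusted limma p under 0.05, 1 was higher, where 8.08% of all genes were. The higher ones included the phosphatidate phosphatase LPIN3 at 0.52 ± 0.23, SOAT2, which makes cholesteryl esters in enterocytes, at 0.35 ± 0.18 and the monoacylglycerol acyltransferase MOGAT2 at 0.27 ± 0.14 (adjusted p = 0.246, 0.303 and 0.295, limma). GPAT3, which starts glycerolipid synthesis, differed the other way, by -0.39 ± 0.22 (adjusted p = 0.348, limma). MOGAT2 was also 0.39 ± 0.14 higher in LPS+RSV than in Control (adjusted p = 0.464, limma).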
